A study of Homo sapiens with 10 samples.

Results

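The genes described here are 7 regulators that act on p53, several of them in feedback loops with it: *MDM2*, *MDM4*, *PPM1D*, *CCNG1*, *RCHY1*, *USP7* and *HIPK2*. They were chosen by name, at a time when earlier results of these data were known, and all 7 were found by symbol both among the 13029 genes of the *ZMAT3* experiment and among the 17642 genes of the p53 siRNA experiment. RNA-seq was performed in 10 libraries of HCT116, a human colorectal cancer cell line that carries wild-type p53. In the siRNA experiment, 2 libraries came from cells transfected with siCTRL, a control siRNA, and 2 from cells transfected with sip53, a pool of 4 siRNAs against p53, for 72 hours. In the *ZMAT3* experiment, 3 libraries came from *ZMAT3*-WT cells and 3 from *ZMAT3*-KO cells. HCT116 cells were electroporated with Cas9 and guides flanking the p53 response element of *ZMAT3* and selected with puromycin, and clones of both genotypes were then grown from single cells. The *ZMAT3*-KO cells are 1 such clone, and how many *ZMAT3*-WT clones were sequenced is not given in the sources used here. Genotype and differences between clones cannot be told apart. Apart from the puromycin selection in the *ZMAT3* experiment, no drug treatment of these cells is named in the sources used here. The experiments share no control libraries.

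p53 is kept at a low level in unstressed cells mainly by MDM2, a ubiquitin ligase that p53 itself switches on, so that the pair form a negative feedback loop. MDM4 is the relative and partner of MDM2, which blocks the activation domain of p53. PPM1D, also called WIP1, is a p53-induced phosphatase that removes activating phosphates from p53 and its kinases. Cyclin G1, the product of *CCNG1*, recruits a phosphatase to MDM2, and RCHY1, also called PIRH2, is a further p53-induced ubiquitin ligase of p53. USP7 removes ubiquitin from p53 and MDM2, and the kinase HIPK2 phosphorylates p53 and is itself a substrate of MDM2. ZMAT3 is an RNA-binding protein encoded by a p53 target gene.

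Because p53 acts through its DNA site, the stretch closest to the p53 consensus was searched for within 2000 bases on either side of the canonical start site of each gene in hg38. The site was taken as 2 copies of the p53 consensus decamer at most 10 bases apart, with the core C and G of each copy kept. This rule was adopted after a stricter one had missed *MDM2*, so the *MDM2* match does not come from a rule set in advance. The consensus is its own reverse complement, so this reading covers both strands. The best matches of the 4 genes lower in both sip53 libraries than in both siCTRL libraries, and that of *MDM4* for contrast, are given on the sense strand of each gene with the decamers in capitals and any bases between them in lower case.
MDM2: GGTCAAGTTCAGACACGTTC
PPM1D: GGCCCAGCTCtcgcGGACAAGTCC
CCNG1: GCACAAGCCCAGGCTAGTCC
HIPK2: GAACATGCCGgtGGACATGTGA
MDM4: GTGCTTGTTTgaaaATGCTTGTTT
The *CCNG1* match, at chr5:163437926-163437945 in intron 1, departs from the consensus at 1 base, and 4.52% of 19970 start sites of protein-coding genes had a match at least as close. The matches of *MDM2* (chr12:68808923-68808942, intron 1), *PPM1D* (chr17:60600237-60600260, in the first exon, starting 44 bases past the start site) and *MDM4* (chr1:204516933-204516956, intron 1) depart at 2 bases. So does that of *RCHY1*, and 27.3% of start sites had a match as close as these. The matches of *HIPK2* (chr7:139776118-139776139, intron 1) and *USP7* depart at 3 bases, as close as in 77.7% of start sites. Binding was not measured in these libraries, and a match describes the letters only.

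Both experiments were tested with limma on log2 values. The siRNA values are FPKM (fragment counts corrected for gene length and sequencing depth, so that levels of different genes can be compared) and were tested as log2(FPKM + 0.1) over the 14274 genes that averaged 0.5 FPKM or more. With 2 libraries a group, a gene was called there at an unadjusted p of 0.05, and the adjusted p is printed beside it. The *ZMAT3* values are log2 CPM (counts scaled to library size and not to length), and a gene was called at a Benjamini-Hochberg adjusted p of 0.05 over 13029 genes. The depth of the libraries is unknown, and all 6 *ZMAT3* libraries hold a common distribution of values. Their lowest (-6.62) and highest (13.5) log2 CPM were the same, which scaling to library size alone would not give. In the deposited siRNA table the authors' mean normalized count of the members runs from 738 for *RCHY1* to 7445 for *CCNG1*, at which counting error alone would be 3.68% and 1.16%. Across genes, replicates had a Pearson's r of 0.964 (siCTRL), 0.958 (sip53) and 0.995 to 0.996 (*ZMAT3* experiment). *ZMAT3* itself fell from 5.15 ± 0.13 to 2.26 ± 0.08 log2 CPM (SD, n = 3 each) in *ZMAT3*-KO cells and from 12 and 13.6 to 3.16 and 1.97 FPKM with sip53. The level of the transcript targeted by sip53 is not reported here. *CDKN1A*, the p53 target that encodes p21, fell 14-fold with sip53 (503 to 35.9 FPKM, limma adjusted p = 0.00869). Of 8 epithelial markers, *EPCAM*, *CDH1*, *CLDN4*, *KRT8*, *KRT18* and *KRT19* were expressed in all libraries. *VIL1* had group means of 0.2 and 0.16 FPKM in the siRNA table and was not listed in the *ZMAT3* table, and *LGALS4* was listed in neither. *EPCAM* was higher with sip53 (198 and 300.2 FPKM on average, limma, called, adjusted p = 0.247), and *KRT8*, *KRT18* and *KRT19* differed in *ZMAT3*-KO cells by -0.94, -0.82 and -1.75 on the log2 scale, and the part of these changes in the results was not tested. Of 4 leukocyte, 4 fibroblast and 3 endothelial markers, 1 was listed in the *ZMAT3* table, *COL1A1*, which was higher in *ZMAT3*-KO cells (3.26 and 3.42 log2 CPM on average, limma adjusted p = 0.0269). In the siRNA table *COL1A1* (4.75 and 6.51 FPKM) and *LYZ* (2.35 and 1.24 FPKM) were not called, and *PDGFRB* and *VWF* had group means of 0.085 to 0.185 FPKM. Gene values sum over isoforms, so changes in splicing of a member could not be seen.

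With sip53, 3 of the 7 genes were called and all 3 were lower: *MDM2*, *PPM1D* and *HIPK2*. Of all genes tested, 15.1% were called, 9.28% lower and 5.86% higher (1325 and 836 genes). After centring every library on the median gene the split was 1048 lower and 1120 higher, and all 3 members remained lower. The 3 genes did not pass an adjusted p of 0.05, as only 0.273% of all genes did. The groups did not overlap for 6 of the 7 members (4 lower, 2 higher), against 46.4% of all genes (26.3% lower, 20.1% higher). In *ZMAT3*-KO cells 6 of the 7 were called, against 58.8% of all genes, so most genes of the table shared this outcome. The groups did not overlap for 6 members, against 64.2% of all genes. The changes there were small: *MDM2* and *PPM1D* were lower (30.1% of all genes), *MDM4*, *CCNG1*, *RCHY1* and *HIPK2* were higher (28.7% of all genes), and none reached a 1.5-fold change, which 8.96% of all genes did together with the adjusted p.

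**Figure D1:**
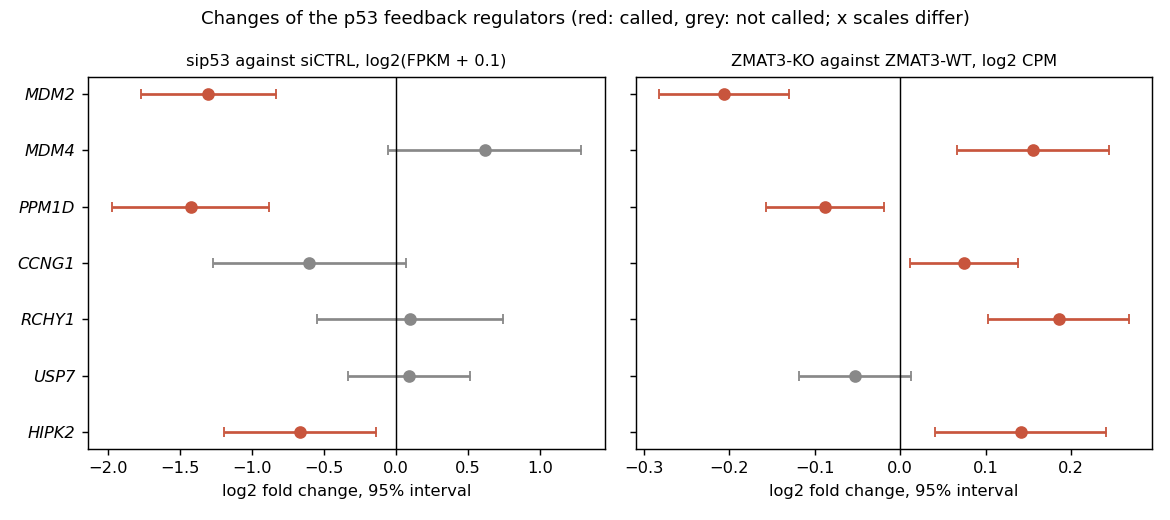
Log2 fold change of each member (point) with its 95% interval from limma (bar) for sip53 against siCTRL on the log2(FPKM + 0.1) scale, left, and for *ZMAT3*-KO against *ZMAT3*-WT on the log2 CPM scale, right; red marks called genes, grey the others, and the x scales differ. *MDM2* and *PPM1D* lie below 0 on both sides, and *HIPK2* lies below 0 on the left (-0.66) and above 0 on the right (0.14).

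In siCTRL cells the members spanned a wide range of levels. *CCNG1* was highest with a mean of 147 FPKM, above 95% of the genes tested, followed by *MDM2* with 99.2 FPKM. *USP7* (47 FPKM) and *PPM1D* (39.6 FPKM) came next, with ranges that did not overlap. *RCHY1* (19.2 FPKM) and *HIPK2* (16.8 FPKM) had overlapping ranges and cannot be ordered. *MDM4* was lowest at 6.63 FPKM, above 38.2% of the genes tested. With sip53 the order changed: *USP7* (50 FPKM) stood above *MDM2* (40.1 FPKM), *RCHY1* (20.9 FPKM) above *PPM1D* (14.6 FPKM), and the ranges of *HIPK2* (10.5 FPKM) and *MDM4* (10.1 FPKM) overlapped.

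**Figure D2:**
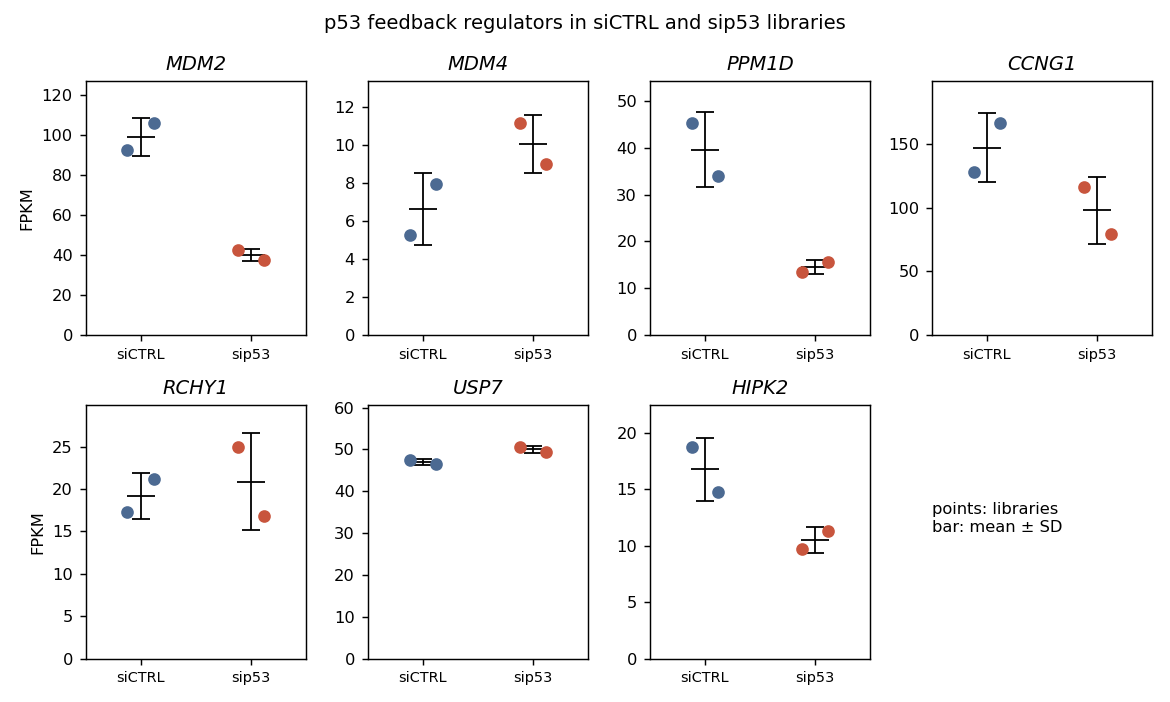
FPKM (y axis, starting at 0) of each member in the 2 siCTRL (blue) and 2 sip53 (red) libraries, with the mean and SD as bars. The sip53 points of *MDM2*, *PPM1D*, *HIPK2* and *CCNG1* lie below both siCTRL points, those of *MDM4* and *USP7* lie above, and those of *RCHY1* overlap.

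*MDM2* is transcribed from the plus strand of chromosome 12, between bases 68808177 and 68845544 (hg38, GENCODE release 44). The siCTRL libraries gave 92.4 and 105.9 FPKM, the sip53 libraries 42.4 and 37.8 FPKM. Every siCTRL value was more than 2-fold above every sip53 value. The fall was 2.47-fold (log2 fold change -1.30 ± 0.19, SE; limma, called, adjusted p = 0.0919), a larger change than in all but 3.32% of the genes tested. In the *ZMAT3* experiment *MDM2* had 7.54, 7.65 and 7.66 log2 CPM in *ZMAT3*-WT and 7.40, 7.44 and 7.39 log2 CPM in *ZMAT3*-KO cells. The groups did not overlap, and the decrease was 1.15-fold (log2 fold change -0.21 ± 0.035, SE; limma adjusted p = 0.000282), with a 95% interval of -0.28 to -0.13. Both calls of *MDM2* were kept with each library left out in turn, at -1.40 to -1.21 and -0.25 to -0.19. In GENCODE an antisense long non-coding RNA covers 10.5% of the canonical *MDM2* exons, the oppositely transcribed *CPM* gene 1.78%, and a pseudogene on the same strand 5.86%. Whether counting used strand is not given in the sources used here, so reads of these could have been counted for *MDM2*.

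*MDM4*, on chromosome 1 from 204516379 to 204558120, was called higher in *ZMAT3*-KO cells and was not called with sip53. Its level was 5.28 and 7.98 FPKM in the siCTRL and 11.2 and 8.99 FPKM in the sip53 libraries. The groups were separate with sip53 higher, but siCTRL replicate 2 and sip53 replicate 2 were close. The 1.53-fold difference (log2 fold change 0.62 ± 0.27, SE) was not called (limma adjusted p = 0.361), and its 95% interval of -0.05 to 1.29 includes no change and more than a 2-fold rise. It was called without siCTRL replicate 2 (0.91) and after such centring (0.69), so the call of *MDM4* rested on these choices. In *ZMAT3*-WT cells *MDM4* had 4.84, 4.92 and 4.96 log2 CPM and in *ZMAT3*-KO cells 5.05, 5.08 and 5.06 log2 CPM. This small rise (log2 fold change 0.16, limma adjusted p = 0.00583) was kept with each library left out, at 0.12 to 0.18.

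Since MDM2 and MDM4 work as a pair, their relative mRNA level was taken in each library. In siCTRL libraries *MDM2* FPKM was 17.2 and 13.1 times that of *MDM4*, with 0.1 FPKM added to each, and in sip53 libraries 3.77 and 4.17 times. Log2 *MDM4* minus log2 *MDM2* rose from -3.91 ± 0.28 to -1.99 ± 0.10 (SD, n = 2 each), a 3.79-fold shift toward *MDM4*. Behind it were log2 fold changes of -1.30 for *MDM2* and of 0.62, not called, for *MDM4*. In this relative level all libraries of a group lay on the same side, but the exact two-sided permutation p was 0.333, the smallest that 2 libraries in each group allow. In the *ZMAT3* experiment the same difference went from -2.71 ± 0.02 to -2.35 ± 0.02 (SD, n = 3 each), a 1.28-fold shift. The exact two-sided permutation p was 0.1, the smallest that 3 libraries against 3 can give. CPM are not scaled to length, so this second pair of values compares groups and not the levels of the genes.

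**Figure D3:**
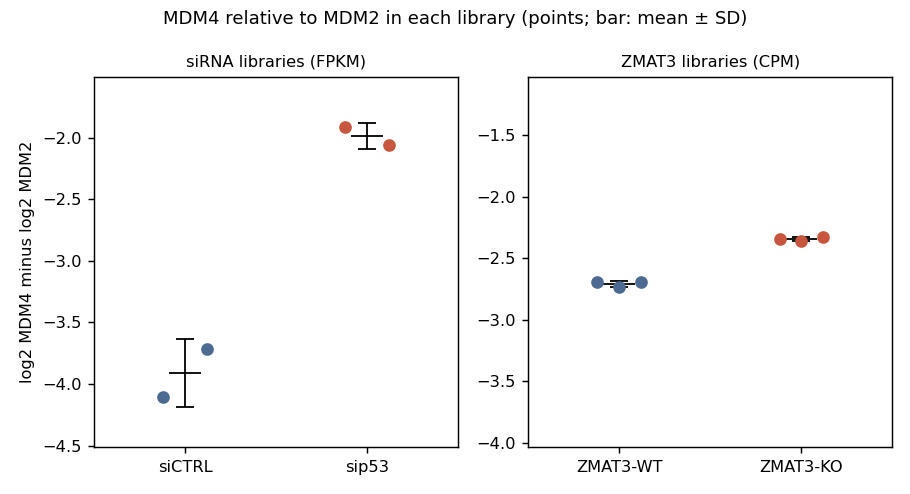
Log2 level of *MDM4* minus log2 level of *MDM2* (y axis, spanning 3 log2 units in each panel) in each siRNA library (left, from FPKM + 0.1) and *ZMAT3* library (right, from CPM), with the mean and SD as bars. The sip53 libraries lie at -1.92 and -2.06 against -4.10 and -3.71 with siCTRL, and the 3 *ZMAT3*-KO libraries lie 0.36 above the 3 *ZMAT3*-WT libraries on average.

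*PPM1D* lies on chromosome 17 from 60600193 to 60666280. The siCTRL libraries had 45.2 and 34 FPKM and the sip53 libraries 13.5 and 15.6 FPKM, the lowest siCTRL value being more than 2 times the highest sip53 value. Its decrease was 2.69-fold (log2 fold change -1.43 ± 0.22, SE; limma, called, adjusted p = 0.102), and 2.63% of the genes tested had a larger change in either direction. The call was kept with each library left out, at -1.63 to -1.22, a range that overlaps that of *MDM2*. In the *ZMAT3* experiment *PPM1D* had 6.05, 6.07 and 6.05 log2 CPM in *ZMAT3*-WT and 5.97, 6.0 and 5.93 log2 CPM in *ZMAT3*-KO cells. The groups were separate but the decrease was 1.06-fold (log2 fold change -0.09, limma adjusted p = 0.0294). It was no longer called without *ZMAT3*-WT replicate 2 (adjusted p = 0.099), *ZMAT3*-WT replicate 3 (0.0635), *ZMAT3*-KO replicate 1 (0.074) or *ZMAT3*-KO replicate 3 (0.117), at log2 fold changes of -0.09 to -0.07, and over all alternatives the adjusted p ran from 0.0224 to 0.117.

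*CCNG1*, on chromosome 5 from 163437569 to 163446151, had 128 and 166 FPKM in the siCTRL and 116 and 79.3 FPKM in the sip53 libraries. The groups were separate, with siCTRL replicate 1 close to sip53 replicate 1. The 1.52-fold lower level with sip53 (log2 fold change -0.60 ± 0.27, SE) was not called (limma adjusted p = 0.375, 95% interval -1.27 to 0.07). It was called without sip53 replicate 1, at -0.87, and not without sip53 replicate 2, at -0.33. In *ZMAT3*-WT cells *CCNG1* had 7.51, 7.57 and 7.53 log2 CPM and in *ZMAT3*-KO cells 7.63, 7.57 and 7.63 log2 CPM. The groups were nearly touching, and the 1.05-fold rise (log2 fold change 0.07, limma adjusted p = 0.0425) was lost without *ZMAT3*-WT replicate 1 (adjusted p = 0.0715), *ZMAT3*-WT replicate 3 (0.123), *ZMAT3*-KO replicate 1 (0.148) or *ZMAT3*-KO replicate 3 (0.138), and without the variance trend (0.104). Over all alternatives its adjusted p ran from 0.0159 to 0.148.

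*RCHY1* occupies bases 75479033 to 75514764 of chromosome 4, minus strand. Its siCTRL values were 17.3 and 21.1 FPKM and its sip53 values 24.9 and 16.8 FPKM. The sip53 values enclosed the siCTRL values, so no direction can be given (log2 fold change 0.10, 95% interval -0.54 to 0.74, limma adjusted p = 0.894). The sign turned without siCTRL replicate 1 (-0.04) or sip53 replicate 1 (-0.18). In the *ZMAT3* experiment the 3 *ZMAT3*-WT libraries had 5.36, 5.47 and 5.41 log2 CPM and the 3 *ZMAT3*-KO libraries 5.61, 5.57 and 5.62 log2 CPM. This was a 1.14-fold rise (log2 fold change 0.19 ± 0.038, SE; limma adjusted p = 0.00108), and it was called with each library left out. A gene on the opposite strand, *THAP6*, shares 4.22% of the canonical *RCHY1* exons.

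*USP7*, at bases 8892097 to 8975328 of chromosome 16 on the minus strand, was called in neither experiment. The siCTRL libraries held 47.5 and 46.4 FPKM, the sip53 libraries 50.6 and 49.4 FPKM. Although both sip53 values were higher, the log2 fold change was 0.09 with a 95% interval of -0.34 to 0.51 (limma adjusted p = 0.851), which includes a rise of 1.43-fold. In *ZMAT3*-WT cells it had 8.27, 8.27 and 8.34 log2 CPM and in *ZMAT3*-KO cells 8.22, 8.29 and 8.21 log2 CPM. These groups overlapped and the difference of -0.05 was not called (limma adjusted p = 0.147, 95% interval -0.12 to 0.01). Without *ZMAT3*-KO replicate 2 it was -0.08 and passed, with a limma adjusted p of 0.0422, the lowest of a range over all alternatives that reached 0.458.

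*HIPK2* spans 216429 bases of chromosome 7, minus strand, with ends at 139561570 and 139777998. Levels were 18.7 and 14.8 FPKM in the siCTRL and 9.67 and 11.3 FPKM in the sip53 libraries. The groups were separate and the decrease was 1.58-fold (log2 fold change -0.66 ± 0.21, SE; limma, called, adjusted p = 0.245). It was not called without siCTRL replicate 1 (-0.50) or sip53 replicate 1 (-0.55), or with the replicate number as a block (-0.66). In the *ZMAT3* experiment *HIPK2* had 6.12, 6.23 and 6.29 log2 CPM in *ZMAT3*-WT and 6.30, 6.44 and 6.33 log2 CPM in *ZMAT3*-KO cells. This 1.10-fold rise (log2 fold change 0.14, limma adjusted p = 0.0187) went against the direction with sip53, and the difference between the experiments was not tested because the tables were normalized separately. The rise was not called without *ZMAT3*-WT replicate 1 (0.10, adjusted p = 0.0635) or *ZMAT3*-KO replicate 2 (0.10, adjusted p = 0.0839), or without the variance trend (adjusted p = 0.0795), and the adjusted p ran from 0.00405 to 0.0839 over all alternatives.

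**Figure D4:**
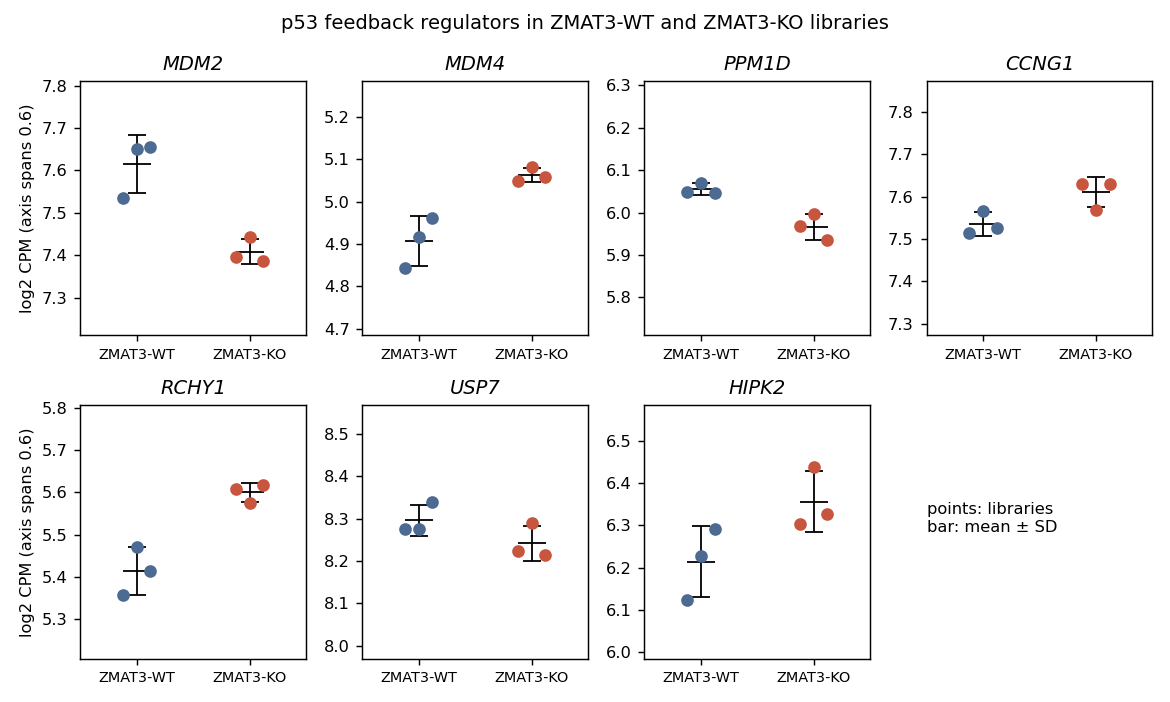
Log2 CPM of each member in the 3 *ZMAT3*-WT (blue) and 3 *ZMAT3*-KO (red) libraries, with the mean and SD as bars; every y axis spans 0.6 log2 units. Groups are separate for all members but *USP7*, and the gap is smallest for *CCNG1*.

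Relatives of the members by family were examined next. With sip53, *HIPK1*, a kinase of the same family as *HIPK2*, fell 1.91-fold from 16.6 ± 0.66 to 8.63 ± 0.40 FPKM (SD, n = 2 each; limma, called, adjusted p = 0.123), whereas *HIPK3* had 14.4 and 14 FPKM on average (log2 fold change -0.08, not called). *PPM1A*, a phosphatase related to *PPM1D*, rose 1.47-fold (limma, called, adjusted p = 0.245). These were the 2 of 7 relatives called, against 15.1% of all genes, and *CCNG2*, *PPM1B*, *PPM1F* and *PPM1G* had log2 fold changes between -0.11 and 0.10. Of the 7 relatives, 5 were called in *ZMAT3*-KO cells, against 58.8% of all genes, with *CCNG2* (0.35), *PPM1B* (0.28) and *PPM1A* (0.18) higher and *PPM1F* (-0.15) and *HIPK3* (-0.13) lower on the log2 scale.

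A list of 8 other genes that take part in p53 feedback loops had a median log2 fold change of -1.18 with sip53, against -0.60 for the members and -0.04 for all genes tested. Of the 8, 5 were called, against 15.1% of all genes, and 3 were not. All 5 were lower (9.28% of all genes). *TP53INP1*, which works with HIPK2 in phosphorylating p53, fell 9.88-fold from 29 ± 5.55 to 2.87 ± 0.78 FPKM (SD, n = 2 each; limma adjusted p = 0.0387). *PHLDA3*, an inhibitor of AKT, fell 3.61-fold (adjusted p = 0.0564). The ubiquitin ligase genes *COP1* (22.8 and 27.9 FPKM on average) and *SIAH1* (9.11 and 12 FPKM) and the RNA-binding protein gene *RBM38* (37 and 34.5 FPKM) were not called, although the *COP1* and *SIAH1* values of both sip53 libraries lay above those of both siCTRL libraries. The list's median in *ZMAT3*-KO cells was -0.06, against -0.005 for all genes. There 4 genes were called lower (30.1% of all genes) and 2 higher (28.7% of all genes). *TRIAP1* (-0.42) and *SESN1* (-0.41) had the largest falls, and *TP53INP1* (0.44) and *SIAH1* (0.20) rose. *TP53INP1* thus was called lower with sip53 and higher in *ZMAT3*-KO cells, whereas *TRIAP1*, *SESN1* and *PHLDA3* were called lower in both. *HIPK2* shared the opposite directions, with calls that were lost under some alternatives. So did *TP53I3*, *SESN2*, *SETD7* and *PPP1R13L* of the lists below, so the pattern was not particular to *TP53INP1* and *HIPK2*.

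Of 16 other ubiquitin ligases, deubiquitinases and adaptors of p53 or MDM2, 0 were called with sip53 at an unadjusted limma p of 0.05. Of all genes tested, 15.1% were called. The log2 fold changes of the 16 lay between -0.45 and 0.43. In *ZMAT3*-KO cells 8 of the 16 were called, 4 in each direction, where 58.8% of all genes were called. Their log2 fold changes ran from -0.62 for the deubiquitinase *USP2* to 0.29 for *OTUB1*. Of 15 kinases of p53 or MDM2, 1 was called with sip53, against 15.1% of all genes. This was the mitotic kinase *AURKA*, which rose 1.59-fold from 48.3 to 77.1 FPKM (limma, called, adjusted p = 0.19). Of these kinases, 11 were called in *ZMAT3*-KO cells, 5 higher and 6 lower, beside the same 58.8% of all genes. The checkpoint kinase *CHEK1* was 1.90-fold lower (limma adjusted p = 2.23e-10) and *PLK3* 1.65-fold lower, both larger changes than any member showed there.

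Among 10 ribosomal and nucleolar proteins that bind MDM2, *RPS27L*, itself a p53 target, was the single gene called with sip53, against 15.1% of all genes. It fell 4.33-fold from 107.6 to 24.4 FPKM (limma, called, adjusted p = 0.0985). In *ZMAT3*-KO cells 7 of the 10 were called lower (30.1% of all genes), 1, *CDKN2A*, was called higher (28.7% of all genes), and 2 were not called. *RPS27L* fell by 0.50 and *NCL*, which encodes nucleolin, by 0.18 on the log2 scale. Of 16 coactivators and modifying enzymes of p53, 4 were called with sip53, against 15.1% of all genes. The acetyltransferase genes *KAT8* (1.52-fold) and *KAT5* (1.49-fold) were higher, and the methyltransferase gene *SETD7* (1.62-fold) and *PPP1R13L* (1.41-fold), an inhibitor of p53, were lower. The number called in *ZMAT3*-KO cells was 7 of the 16, against 58.8% of all genes. Log2 fold changes ran from -0.36 for *PPP1R13B* to 0.48 for *SMYD2*.

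The members were set beside 20 p53 targets for arrest, apoptosis and repair. With sip53, 16 of the 18 with values in the test were called, against 15.1% of all genes. All 16 were lower (9.28% of all genes), and the median log2 fold change over the 18 was -1.44. *MDM2* (-1.30) and *PPM1D* (-1.43) lay near this median, and *HIPK2* (-0.66) and *CCNG1* (-0.60) were closer to 0. In *ZMAT3*-KO cells 12 of 19 targets were called lower (30.1% of all genes), 3 were called higher (28.7% of all genes) and 4 were not called. The median over the 19 was -0.27, near the value of *MDM2* (-0.21), against -0.005 for all genes. *PLK2* fell by 2.20 on the log2 scale and *SPATA18* and *TP53I3* rose by 0.53 and 0.37. The level of *SPATA18* was low, at -0.17 log2 CPM in *ZMAT3*-WT and 0.36 in *ZMAT3*-KO cells on average (SE of its change 0.17).

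**Figure D5:**
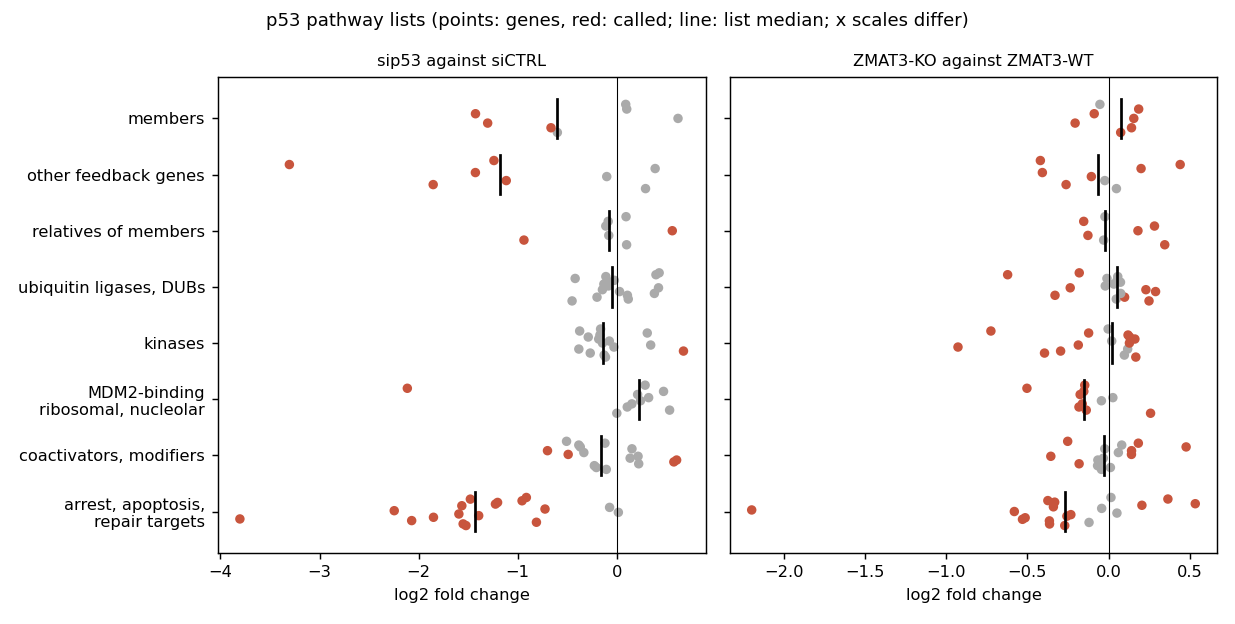
Log2 fold change of each gene (point, red where called) of the members and of 7 lists of p53 pathway genes, with the list median as a line, for sip53 against siCTRL (left) and *ZMAT3*-KO against *ZMAT3*-WT (right); the x scales differ. The medians of the members (-0.60), the other feedback genes (-1.18) and the arrest, apoptosis and repair targets (-1.44) lie below those of the other lists on the left.

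The genes most like each member were taken as those with the smallest Euclidean distance over the 10 libraries, each gene on the log2 scale relative to its control group, among 11355 genes of both tables. The closest to *MDM2* was *BAK1*, which encodes an effector of apoptosis, at a distance of 0.215 against a median of 1.95 over all genes. Its mean change was -1.25 with sip53 and -0.17 in *ZMAT3*-KO cells. *SLC25A13* and *FBXW11* followed. The gene closest to *PPM1D* was *RAB15* (distance 0.253), with changes of -1.46 and -0.18, and the gene closest to *MDM4* was *S100PBP* (distance 0.099), with changes of 0.63 and 0.14. *NCBP1* lay closest to *CCNG1*, *CPS1* to *RCHY1*, *KANK1* to *USP7* and *CAPN2* to *HIPK2*, at distances of 0.169, 0.12, 0.087 and 0.2. The libraries of a group share their treatment, so these distances mainly describe the sizes of the 2 changes.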

How the data were processed

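RNA-seq values of 10 HCT116 libraries were analysed as deposited. For the *ZMAT3* libraries the authors used poly(A) capture, stranded paired-end sequencing, Cutadapt, STAR on hg38 and RSEM, and deposited log2 values read as log2 CPM. How these were derived from RSEM is not given in the sources used here. For the siRNA libraries the authors deposited values read as FPKM, and a mean signal per gene (mean normalized count). Submitters' processing notes list CASAVA 1.8.2, TopHat2 2.0.8, FastQC 0.11.2, hg19 and hg38 without roles. The unit was read from the values. The authors' fold changes and p-values in the tables were not used.

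The *ZMAT3* values were tested without a filter or pseudocount, and the siRNA values as log2(FPKM + 0.1) where a gene averaged 0.5 FPKM or more. Both fits were two-sided and used limma 3.58.1 in R 4.3.3, with the prior variance following the mean level and Benjamini-Hochberg adjustment. p-values measure the spread between transfections or between cultures of a clone, and for *ZMAT3*-WT possibly between clones, as their number is not given. Positions are from GENCODE release 44 and sequences from hg38, handled with Python 3.11.15. The members, lists, tests and thresholds were chosen with earlier results of these data known. The lists were written from general knowledge, and from each a few called genes with the largest changes in each direction were named, with uncalled genes named for comparison after their values were seen. The site search was widened after a stricter one, with intact cores, had missed *MDM2*. Alternatives were another pseudocount, other filters, centring, no trend, a replicate block, other thresholds and leaving out each library.

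Same-numbered libraries did not deviate together (correlations of -0.09 to -0.02 in the *ZMAT3* and -0.62 in the siRNA experiment), so the numbers were not taken as pairs.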

Additional observations from a re-analysis of the deposited data

How the results depend on the processing

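The direction of every member in the *ZMAT3* experiment, and with sip53 of every member but *RCHY1* (-0.18 to 0.38 on the log2 scale with single libraries left out), was kept under all alternatives run. Other filters, no trend, a replicate block and other thresholds leave a fold change as it is, so these could not turn a direction. Centring hardly moved the *ZMAT3* values, which already share a distribution (*MDM2* -0.2061 before and -0.2056 after). Stricter thresholds removed most calls: with a 1.5-fold change also required, 0 members and 4 list genes were called in *ZMAT3*-KO cells (6 and 60 without it), and at an adjusted p of 0.05 in limma, 0 members and 3 list genes were called with sip53 (3 and 29 at an unadjusted p). Of all genes, 8.96% were called in *ZMAT3*-KO cells with the 1.5-fold change and 58.8% without it. With sip53 these shares were 0.273% at the adjusted and 15.1% at the unadjusted p. With single libraries left out, 4 to 6 members and 56 to 59 list genes were called in *ZMAT3*-KO cells. Of all 13029 genes, 3329 to 3682 were called higher there and 3504 to 3844 lower. With sip53 such a fit leaves 1 library in a group, and a lone sample is assumed to vary like the other group. The log2 fold changes of members called with all libraries were then -1.40 to -1.21 (*MDM2*), -1.63 to -1.22 (*PPM1D*) and -0.83 to -0.50 (*HIPK2*). The *MDM4* to *MDM2* shift stayed at 0.35 to 0.37 and 1.73 to 2.12 on the log2 scale.

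With the replicate number as a block, 6 members and 62 list genes were called in *ZMAT3*-KO cells, beside 3906 genes higher and 4133 lower of all 13029. With sip53 the block called 2 members (without *HIPK2*) and 22 list genes, beside 434 genes higher and 650 lower of all 14274. Libraries sharing a number did not correlate best with each other in the *ZMAT3* experiment. A crossed replicate block, siCTRL 1 with sip53 2, chosen after seeing the data, called 5 members and 51 list genes, beside 2410 genes higher and 3128 lower of all 14274. The cause of these differences was not tested. With 2 libraries a group, the siRNA intervals of *MDM4*, *PPM1D*, *CCNG1*, *RCHY1* and *HIPK2* span more than 1 log2 unit.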
